A study of Mus musculus with 2 samples.

Results

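The Hox cluster genes were the 39 protein-coding genes of the RefSeq annotation of GRCm38 whose symbol is Hoxa, Hoxb, Hoxc or Hoxd followed by a number, out of 21887 protein-coding genes on the assembled chromosomes. They lay in 4 clusters: 11 genes in Hoxa on chromosome 6, 10 in Hoxb on chromosome 11, 9 in Hoxc on chromosome 15 and 9 in Hoxd on chromosome 2. Cleavage Under Targets and Tagmentation (Cut&Tag), in which an antibody on chromatin guides the Tn5 transposase to cut and tag the DNA beside it, was carried out on nuclei of frozen mouse hippocampus in a pair of libraries, 1 with an antibody against Smad4 and 1 with control IgG, and neither was replicated. The genotype, age and number of the mice for these libraries were not given in the labels. The 5326 deposited peaks are filed under the control IgG sample, but the name of the list gives no antibody, and the peaks were therefore not ascribed to Smad4 or to IgG. A list of peaks holds no expression values, and whether the Hox genes were silent in this tissue, or whether markers of hippocampus were present, could not be measured from it.

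Hox genes encode homeodomain transcription factors that give the cells of the trunk, hindbrain and limbs their position along the body axis. Genes with the same number in different clusters are paralogues, and within a cluster the genes are ordered so that those with low numbers are used earlier and nearer the head. The forebrain, from which the hippocampus arises, forms in front of the domain in which Hox genes are normally used, and in such cells the clusters are typically held silent by Polycomb proteins. Smad4 is the partner that activated Smads share in TGF-β and BMP signaling, and TGF-β family ligands are among the signals that act on Hox genes in the trunk of the embryo.

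No peak of the deposited list lay in any of the 4 Hox clusters. None of the 39 genes had a peak overlapping it or within 3 kb of it, and the nearest peak to any Hox gene was 105 kb away, beyond Hoxc4. Over all protein-coding genes, 2836 of 21887 (13.0%) had a peak by the same rule. Hox genes are short, with a median length of 3737 bp and a range from 1784 to 44009 bp, against a median of 17169 bp for all protein-coding genes. Among the 14013 protein-coding genes within that range of lengths, 1163 (8.30%) had a peak. A share of 13.0% would be 5.05 of 39 genes, and a share of 8.30% would be 3.24. Neighboring Hox genes lie so close together that 1 peak could have served several of them, so the 39 genes stand for 4 places in the genome and not for 39 separate observations. No test was made, because there was 1 peak list and no replicate.

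The clusters were then taken as whole regions, from the outermost end of the first Hox gene to that of the last. The Hoxa cluster spanned 106 kb of chromosome 6 and the Hoxb cluster 174 kb (chr11:96194316-96368254), of which a stretch of 74.7 kb between Hoxb13 and Hoxb9 holds no Hox gene. The Hoxc cluster spanned 116 kb (chr15:102921131-103036856) and the Hoxd cluster 96.9 kb (chr2:74668225-74765142). In the annotation no protein-coding gene other than the 39 Hox genes overlapped these spans, and 32 other genes did. The 4 spans came to 492 kb with 0 peaks. The list as a whole had 0.197 peaks per 100 kb over the 2703 Mb between the outermost annotated genes of the chromosomes, and at that rate 492 kb would hold 0.970 peaks. The exact 95% Poisson interval for a count of 0 reached 3.69 peaks, or 0.750 per 100 kb, and thus included the rate of the whole list. Since 0 is the lowest count possible, a lower density in the Hox clusters than over the whole list could not have been detected. The interval covers counting error only.

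**Figure D1:**
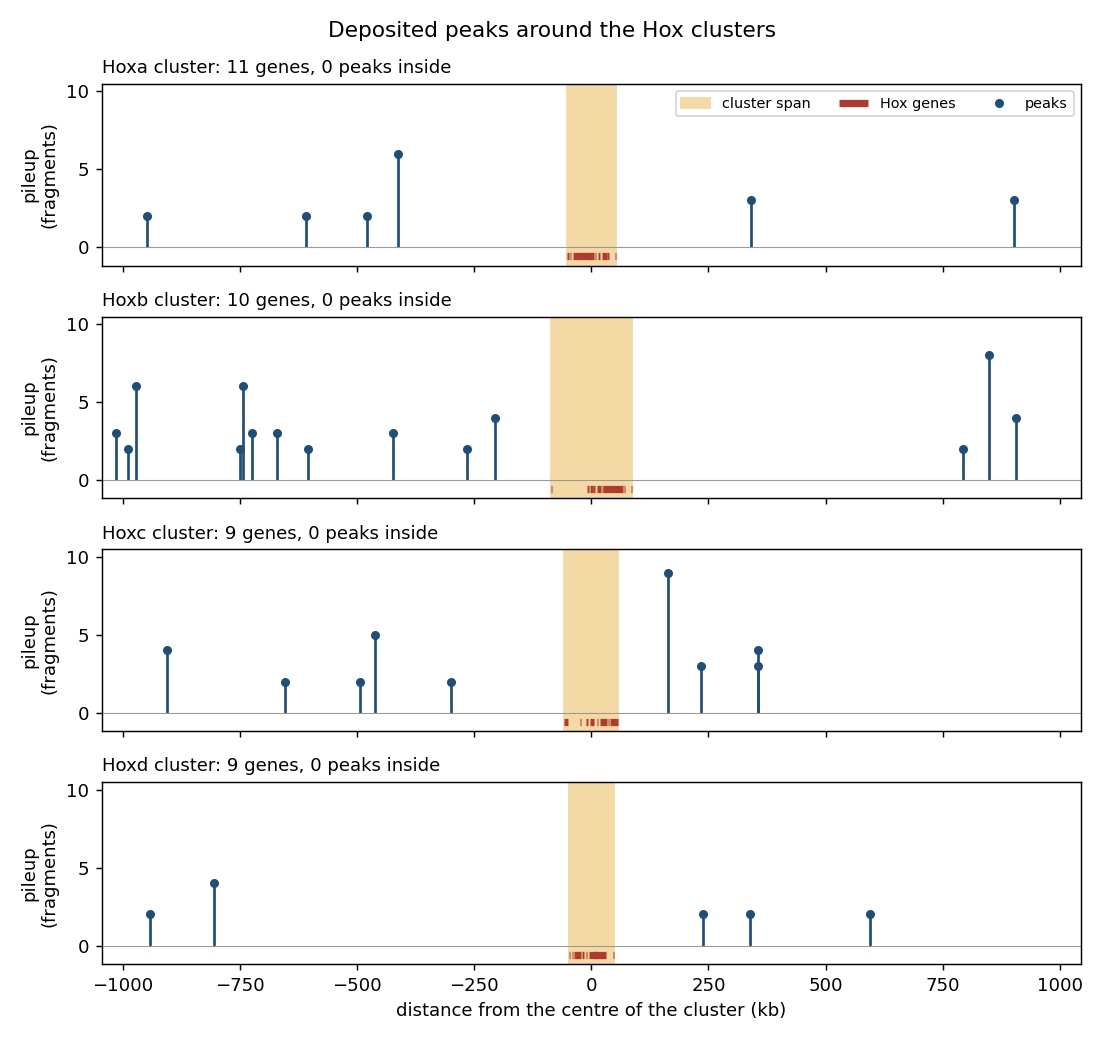
Each row shows 1 Hox cluster, with the distance from the centre of the cluster in kb on the x axis and the pileup of each peak, its height in overlapping fragments, on the y axis. The shaded span is the cluster and the red marks under the axis are its Hox genes. Stems are deposited peaks, and all 4 spans are empty while 34 peaks lie within 1000 kb of them.

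Each cluster was set beside every window of its own length that started at the lower-coordinate end of a protein-coding gene and held the same number of protein-coding genes, give or take 1. For Hoxa, 160 of 256 such windows (62.5%) had no peak, with a mean of 0.535 peaks per window, against 0.208 for this length at the rate of the whole list. Windows like Hoxb had no peak in 859 of 1572 cases (54.6%), with a mean of 0.715. An empty window was therefore the most common outcome for regions of this size and gene count. Of the windows like Hoxc, 609 of 975 (62.5%) had no peak, as did 370 of 566 (65.4%) of those like Hoxd, with means of 0.487 and 0.461. The 4 means together came to 2.20 peaks, which lies under the upper bound of 3.69 peaks for the count of 0. Windows that start at neighboring genes overlap, so these shares describe the genome in this list and are not tests.

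**Figure D2:**
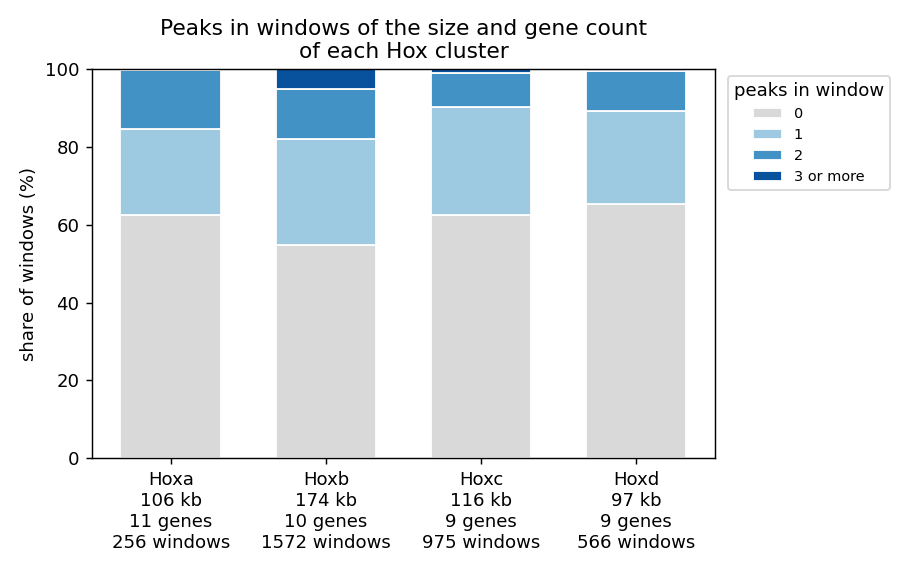
Stacked bars give, for each Hox cluster on the x axis, the share in percent of all windows of the same length and gene count (within 1) that held 0, 1, 2, or 3 or more peaks. The share with no peak, the count seen in each cluster, ranged from 54.6% for Hoxb to 65.4% for Hoxd.

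The distance from each Hox gene to the nearest peak was measured next. It ranged from 105 kb at Hoxc4 to 367 kb at Hoxa2, with a median of 242 kb over the 39 genes. For all protein-coding genes the median was 109.8 kb, the middle 50% ran from 29.5 to 281 kb, and 28.7% of genes were at least as far from a peak as the Hox median. A distance at least as long as that of Hoxc4, the closest Hox gene, was found for 51.1% of all protein-coding genes. By median, the Hoxa genes were the farthest from a peak (335 kb, from 287 kb at Hoxa13 to 367 kb at Hoxa2) and the Hoxc genes the closest (158 kb, from 105 kb at Hoxc4 to 213 kb at Hoxc13). In Hoxb the distance ran from 118 kb at Hoxb13, the gene that stands apart from the others, to 289.8 kb at Hoxb1. Distances in Hoxd ran from 190.2 kb at Hoxd1 to 284 kb at Hoxd13. These values are not independent, since only 5 peaks were the nearest peak of all 39 genes: 1 peak each for the 10 genes of Hoxb, the 9 of Hoxc and the 9 of Hoxd, and a pair of peaks for Hoxa. The paralogue groups showed no common order, because the nearest peak lay beyond the Hoxb13 end of Hoxb, but beyond the Hoxc4 and Hoxd1 ends of Hoxc and Hoxd.

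**Figure D3:**
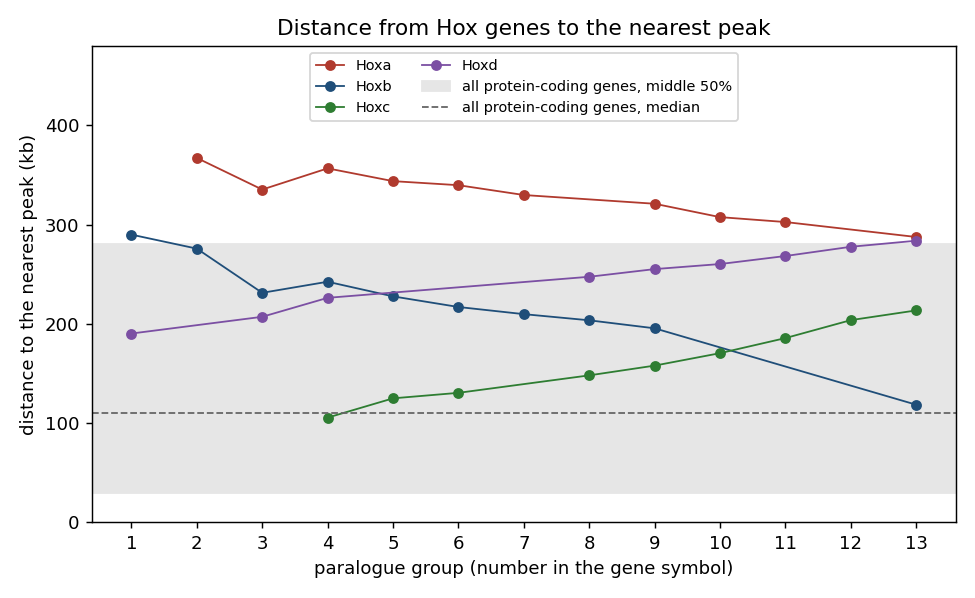
Points give the distance in kb from Hox genes to the nearest peak, against the number in the gene symbol, with 1 line per cluster. The dashed line is the median of all protein-coding genes (109.8 kb) and the gray band their middle 50%; of the genes shown, only Hoxc4 lies below the line, and 26 lie within the band.

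The peaks on either side of the clusters showed how far each empty stretch reached. For these peaks the pileup is the number of fragments that overlap at the summit, and the fold enrichment is that height over the background, as MACS2 computed it. Around Hoxa it was 753 kb long and held 13 protein-coding genes. At its lower-coordinate end was a peak (chr6:51794997-51795297, pileup 6, fold enrichment 6.13) for which the nearest protein-coding gene was Skap2, an adaptor protein gene, at 63.9 kb. On the Hoxa13 side it ended at 287 kb with a peak of pileup 3 inside Hibadh, an enzyme gene of valine breakdown (chr6:52548330-52548696). Evx1, the homeobox gene next to Hoxa13, also lay in this stretch and was 229.9 kb from the nearest peak. Thus the empty stretch was several times longer than the cluster itself.

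Around Hoxb the stretch was 999 kb long and held 26 protein-coding genes. On the Hoxb13 side it ended at 118 kb with a peak (chr11:96075645-96075900, pileup 4, fold enrichment 4.23) that overlapped Atp5g1 and lay 14 bp from its start site. The end on the Hoxb1 side was 707 kb away, at a peak of pileup 2 that was 5919 bp from Osbpl7. Atp5g1 encodes the c subunit of the mitochondrial ATP synthase, as do its paralogues Atp5g2 and Atp5g3, and these were the nearest protein-coding genes to the first peak beyond Hoxc13 and beyond Hoxd13. The peak on the Hoxc13 side (chr15:102678955-102679220, pileup 2) was 242 kb from the cluster and 7908 bp from Atp5g2. That on the Hoxd13 side (chr2:73911413-73911673, pileup 4, fold enrichment 4.46) was 757 kb from the cluster and 87 bp from a start site of Atp5g3. Of these 3 peaks only those at Atp5g1 and Atp5g3 lay at a start site, and this set was noticed after the values were seen.

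The stretch around Hoxc was 463 kb long with 10 protein-coding genes. On the Hoxc4 side it ended at the highest peak near any Hox cluster (chr15:103142290-103142612), with a pileup of 9, a fold enrichment of 7.79 and a −log10 q of 7.51. By q-value it ranked 210 of 5326. It overlapped the noncoding gene D930007P13Rik and lay 10678 bp from Smug1, which encodes a DNA repair glycosylase. A second peak on this side (pileup 3) lay in Cbx5, the gene of the heterochromatin protein HP1α, 1420 bp from a start site. Around Hoxd the stretch was 1044 kb long with 12 protein-coding genes, and on the Hoxd1 side it ended at 190.2 kb with a peak of pileup 2 (chr2:74955308-74955564), 78.6 kb from Mtx2, a gene of the mitochondrial outer membrane. Evx2, next to Hoxd13, was 293.8 kb from a peak.

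The lengths depended on the peak threshold, because several of the peaks at their ends had a pileup of 2. When peaks had to reach a q-value of 0.01, the stretch was 753 kb around Hoxa, 1055 kb around Hoxb, 1068 kb around Hoxc and 1884 kb around Hoxd, and their order was no longer the same. With all peaks in the list, the peaks left 5334 stretches between them with a median length of 268 kb. By number, most stretches were shorter than those around the clusters: 67.1% were shorter than that around Hoxc, 80.9% for Hoxa, 86.7% for Hoxb and 87.7% for Hoxd. The long stretches, however, held most of the sequence. Stretches at least as long as the one around Hoxc held 76.8% of the sequence, and the values were 60.7% for Hoxa, 50.7% for Hoxb and 48.9% for Hoxd. Within 500 kb of the clusters there were 15 peaks, 3 around Hoxa, 3 around Hoxb, 7 around Hoxc and 2 around Hoxd. The higher side of Hoxb and the lower side of Hoxd had 0. Of the 15 peaks, 6 had a pileup of 2, 6 a pileup of 3 or 4, and 3 a pileup of 5 or more. The density in these flanks was 0.375 per 100 kb (exact 95% Poisson interval 0.210 to 0.619), above the 0.197 of the whole list. With flanks of 1000 kb it was 0.425. The gene content of the flanks was not matched in this comparison. Windows of the length and gene count of each cluster also held more peaks than the whole-list rate gives, for Hoxa a mean of 0.535 against 0.208. Within 100 kb of the clusters there were 0 peaks, for which the upper Poisson bound of 0.461 per 100 kb includes both the rate of the whole list and that of the wider flanks. At the density of the 500 kb flanks the clusters would hold 1.85 peaks, still under the bound of 3.69. The clusters and the 100 kb on either side adjoin, and no bound was computed for them together. In the whole list 2846 peaks (53.4%) had a pileup of 2, so most calls rest on 2 overlapping fragments.

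The start sites of Hox genes were examined with the RefSeq promoter sequences of GRCm38, each from 250 bp before to 50 bp after a start site. The table had 24 such windows for 22 of the 39 Hox genes, and none of them overlapped a peak or had one within 1 kb of its start site. This count says little on its own, because only 440 of all 32851 windows (1.34%) overlapped a peak. Peaks were found more often at windows rich in CG steps, a C followed by a G. Windows with 0 to 4 CG steps overlapped a peak in 0.128% of cases (95% exact binomial interval 0.0732% to 0.208%), those with 25 to 29 in 3.79% (3.03% to 4.67%), and those with 30 or more in 2.87% (2.36% to 3.45%). Hox windows had a median of 14.5 CG steps, from 4 at Hoxa9, Hoxd4 and 1 of the start sites of Hoxd11 to 45 at Hoxa13, against a median of 7 for all windows. Among the 11378 windows with at least as many CG steps as the Hox median, 357 (3.14%) overlapped a peak. By CG content, too, most promoters of the kind that Hox genes have were without a peak.

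**Figure D4:**
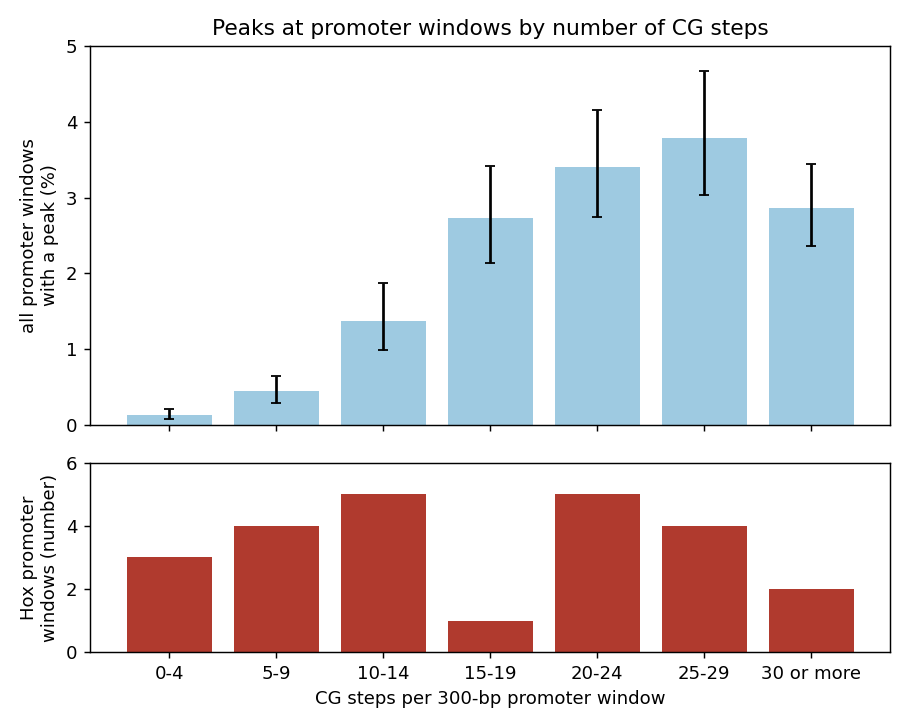
The upper bars give the share in percent of all RefSeq promoter windows that overlapped a peak, by the number of CG steps in the 300 bp window, with 95% exact binomial intervals. The lower bars give the number of Hox promoter windows in each class, 24 in all, none of which overlapped a peak.

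Letters that Smad proteins are known to bind were then looked for in these windows on both strands. CAGAC, from the classical Smad-binding element, was found in 9 of the 24 Hox windows (37.5%) against 49.6% of all windows and 44.5% of those with at least the median CG steps of the Hox windows. GGCGCC, a GC-rich sequence bound by Smads, was found in 5 of 24 (20.8%), against 11.9% of all windows and 29.04% of the CG-rich windows. The palindrome GTCTAGAC was in none of the Hox windows and in 0.213% of all. The following stretches, with CAGAC in each cluster and the GC-rich sequence in Hoxd, were picked as examples upstream of start sites and show such letters (capitals) where no peak was called, read 5′ to 3′ on the strand of the gene.
Hoxa2 (chr6:52164915-52164944, minus strand): ggatcaatcaaaCAGACagtggcttctttt
Hoxb8 (chr11:96281762-96281791, plus strand): cataaacaacaaCAGACtccggctttattg
Hoxc4 (chr15:103034246-103034275, plus strand): ctgtgacctacaCAGACtgcaacacgattg
Hoxd12 (chr2:74674809-74674838, plus strand): ctcctgaaagagGTCTGgaaactttcaagg
Hoxd13 (chr2:74668022-74668051, plus strand): gggtccccggccGGCGCCctcggggcggga
In Hoxd12 the letters are those of CAGAC on the opposite strand. Letters this short occur in many promoters, and a match is a description of the sequence, not a binding site.

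The 32 other genes that overlap the clusters were likewise without a peak within 3 kb, which follows from the peak-free stretches they lie in; of all 28056 RefSeq genes that are not protein coding, 1039 (3.70%) had one. The noncoding RNA gene Gm30528 extends beyond the end of Hoxc and was 81.7 kb from the nearest peak. The 32 also include the long noncoding RNAs Hotair in Hoxc, 194 kb from the nearest peak, and Hotairm1 in Hoxa, 363 kb from it. There were 6 microRNA genes among them. Those of the miR-10 and miR-196 families, which are known to act on Hox messenger RNAs, are paralogues like the Hox genes around them, as their mature 5p sequences show (5′ to 3′, RefSeq, with the seed, bases 2 to 8, in capitals).
mmu-miR-10a-5p (Hoxb): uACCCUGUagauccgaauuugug
mmu-miR-10b-5p (Hoxd): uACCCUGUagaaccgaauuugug
mmu-miR-196a-5p (Hoxb and Hoxc): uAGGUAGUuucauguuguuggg
mmu-miR-196b-5p (Hoxa): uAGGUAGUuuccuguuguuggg
Mir10a lay 241 kb and Mir10b 229.2 kb from a peak. For Mir196b the distance was 318 kb, for Mir196a-1 it was 189 kb and for Mir196a-2 it was 169 kb. The sixth, Mir615 inside Hoxc5, was 127 kb from a peak. These distances restate those of the Hox genes around them.

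Homeobox genes outside the 4 clusters were compared by the same 3 kb rule, by which 13.0% of all protein-coding genes had a peak. None of 13 ParaHox, Evx, Mnx and related genes, close relatives of the Hox genes, had a peak, with a median distance of 317 kb and a median gene length of 6.35 kb. Evx1 and Evx2 lie in the empty stretches around Hoxa and Hoxd, so they restate the result for those clusters. Among 46 homeobox genes of trunk, limb and other organs, 1 (2.17%) had a peak, Lmx1b, with a pileup of 4. The list of 32 forebrain homeobox genes had 6 (18.8%), among them Lhx2, Cux2, Zfhx3, Zeb1 and Six3, and each of the 6 peaks had a pileup of 2. With a q-value of at most 0.01 this list had 0 genes with a peak, beside 6.32% of all protein-coding genes, and with gene ends alone it had 2, beside 5.30% of all protein-coding genes. A list of 11 TALE homeobox genes was made up of the Meis, Pbx, Pknox and Tgif families. Proteins of some of these families, such as Pbx and Meis, bind DNA as partners of Hox proteins. The Irx genes, also of the TALE class, were in the trunk list, and none of them had a peak. Among the 11 listed TALE genes, 3 (27.3%) had a peak. Among them were Pbx3 and Pknox1, with pileups of 5 and 4 inside the gene and at least 19483 bp from either end. The TALE list had 3 genes with a peak at a q-value of at most 0.01, beside 6.32% of all protein-coding genes. At a limit of 0.001 it had 2, beside 3.55%, and with gene ends alone it had 0, beside 5.30%. These lists differ in gene length, with medians of 6.76 kb for the trunk list, 14.6 kb for the forebrain list and 43.0 kb for the TALE list against 3.74 kb for the Hox genes, and the part of length in these counts was not tested. No difference between the Hox genes and these lists was tested.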

How the data were processed

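The authors sequenced the libraries with paired ends, kept uniquely mapped reads and ran MACS2 on them at a cutoff of 0.05, and the submitters' processing notes name BWA, MACS2, HOMER and the build mm10 (GRCm38). Versions, duplicate handling and the use of a control library were not given in the sources used here. For each peak the deposited file gives a score, a fold enrichment and 2 significance values (−log10 p and −log10 q), in the usual MACS2 layout. Starts were counted from 1. The pileup was recovered as the whole number that gave both the fold enrichment, with 1 added to pileup and background alike, and the deposited −log10 p under a Poisson background, within 0.01 for 5326 of 5326 peaks. This step and the distance search were tested on simulated data. The number of reads per library was not used here.

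A gene counted as having a peak if a peak overlapped it or came within 3 kb of it. The members, gene lists and alternatives were chosen with earlier results of these data known. Genes named in the text were each Hox gene with a peak, the closest Hox gene and those at the ends of each cluster, the nearest gene of the first peak on either side, and listed genes with a peak (up to 10 per list). The results for some of these genes are not reported here. Other neighbors, microRNAs and long noncoding RNAs were chosen after their values were seen. All windows of matching size and gene count were enumerated, none drawn at random, and windows that touched a Hox cluster were left out. With 1 list no test between samples was made. The tools were Python 3.11.15 with SciPy 1.17.1, pandas 2.3.3, NumPy 2.4.6 and matplotlib 3.10.9.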

Additional observations from a re-analysis of the deposited data

How the results depend on the processing

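No paired analysis was possible because only 1 list of peaks was analysed, with no second group. The 0 of 39 Hox genes with a peak and the 0 peaks inside the clusters were the same under each alternative run, but with the nearest peak 105 kb away none of these could have changed them: q-value limits of 0.01 and 0.001, a pileup of at least 3, summits, windows of 0, 1 and 10 kb, gene ends alone, and spans extended by 10 and 50 kb. With the limits of 0.01 and 0.001 and the pileup of at least 3, in that order, fewer peaks were used. The median distance of the Hox genes was then 289.8, 464 and 289.8 kb (242.6 kb with summits), the flanks held 5, 2 and 9 peaks, and 11, 8 and 13 of the 163 genes of the comparison lists had a peak, against 24 with all peaks. These are 6.75%, 4.91%, 7.98% and 14.7%, beside 6.32%, 3.55%, 7.72% and 13.0% of all protein-coding genes. Flanks of 100 and 1000 kb held 0 and 34 peaks, and when only the ends of genes were counted 8 listed genes (4.91%) and 5.30% of all protein-coding genes had a peak. In the same order, the share of windows with no peak was 78.9%, 87.1% and 71.5% for Hoxa, 72.6%, 84.4% and 66.5% for Hoxb, 79.2%, 89.2% and 70.6% for Hoxc, and 80.04%, 88.0% and 72.3% for Hoxd. Windows tiling the chromosomes with any gene count had no peak in 79.8%, 70.9%, 78.5% and 81.0% of cases for Hoxa, Hoxb, Hoxc and Hoxd. The thresholds on the windows, the peak-free stretches and the count of peaks at start sites were added after seeing the data. The peak-free stretches, also in that order, were 753, 2532 and 753 kb for Hoxa, 1055, 1594 and 1055 kb for Hoxb, 1068, 1673 and 624 kb for Hoxc, and 1884, 6507 and 1884 kb for Hoxd. The low number of fragments per peak limits every count here.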

Other observations

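Proteins that keep Hox genes silent or active, and the signal that turns them on in the embryo, were looked at by the same 3 kb rule. The list of 43 genes of Polycomb and Trithorax proteins and other chromatin regulators of Hox genes had a median gene length of 31.7 kb. For all protein-coding genes the median was 17169 bp. Of the 43 genes, 11 (25.6%) had a peak. The highest were in Kmt2c (pileup 14), which encodes a histone H3K4 methyltransferase, in Jarid2 (pileup 12), a Polycomb subunit gene, and in Kdm2b (pileup 10), whose protein brings a Polycomb complex to CpG islands. Each of these 3 peaks lay inside the gene and at least 19094 bp from an end. Kmt2a, the methyltransferase best known for keeping Hox genes active, and Chd7, a chromatin remodeler, had 2 peaks each. Kat6a and Kdm6b, of a histone acetyltransferase and an H3K27 demethylase, had peaks of pileup 4 and 5, and the peaks of the other genes had a pileup of 2. With a q-value of at most 0.01, 6 of the 43 genes had a peak, and so did 6.32% of all protein-coding genes. Of 18 genes of retinoic acid signaling, which sets the Hox pattern in the hindbrain, 3 (16.7%) had one: Rara, a receptor, with a peak of pileup 4 at 364 bp from a start site, Stra6, a retinol transporter, with 3 peaks, and Dhrs3, an enzyme that lowers retinaldehyde, with a peak of pileup 2. When peaks had to reach a q-value of 0.01 the count was 1 of 18. It was also 1 with gene ends alone, by which 5.30% of all protein-coding genes had a peak; the Polycomb and Trithorax list had 5 with gene ends alone. The share of all protein-coding genes with a peak was 13.0%, and no difference between these lists and other genes was tested. The part of gene length in these counts was not tested either.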
